A study of Mus musculus with 4 samples.

Results

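Complement components and regulators were described in quiescent mouse myoblasts with and without Wnt3A. The 7 genes are C1ra, C1s1, C2, C3, Cfb, Cfi and Serping1, matched to probe sets by platform symbol, older alias or Entrez ID, among 12393 named genes on the array. For 6 of them 1 probe set each names the gene alone, and all 6 lay above the limit for dim genes described below. For C3 the annotation used here lists no probe set, and it was not analysed here. The genes were chosen by pathway and by their signals in the comparison of Wnt3A with control, so their own differences are given as a description, with no test.

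The cells were C2C12, an established mouse myoblast line, held for 48 hours in semi-solid methyl cellulose suspension, where they stop dividing and enter G0. The control group had 2 arrays of such cells, labelled control, with no addition named in the sample title, and the Wnt3A group had 2 arrays of cells given purified Wnt3A at 50 ng/ml. Both groups shared the line, the serum-containing growth medium, the suspension and its duration. The labels call the arrays biological replicates without saying whether cultures were started apart, so the spread between them may be technical. Signals are on a log2 scale, with n = 2 arrays in each group, and differences are signed as Wnt3A minus control.

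Complement is a cascade of plasma proteins that tags and lyses targets. In the classical pathway the proteases C1r and C1s are bound to the recognition protein C1q. C1r activates C1s, and C1s cleaves C4 and C2. C1 inhibitor, the product of Serping1, inactivates both proteases. In the alternative pathway factor B supplies the protease that cleaves C3, and factor I, encoded by Cfi, degrades the active fragments C3b and C4b. The liver makes most circulating complement, but fibroblasts, macrophages and other cells transcribe several of the genes locally, and interferons, interleukin-6 and tumour necrosis factor are known inducers.

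C1ra and C1s1 stand next to each other among the protein-coding genes of mouse chromosome 6, between C1rl and C1rb in the RefSeq annotation of GRCm38.p6. Cfb and C2 are likewise neighbours on chromosome 17. Both genes of the first pair had lower mean signals with Wnt3A, though the groups of C1s1 overlapped. The means of the second pair differed little, at signals close to the limit for dim genes. RefSeq promoter windows, 250 bases before to 50 bases after a start, were at hand for 3 of the 7 genes, C1ra, C1s1 and C3. The 250 bases before the start are shown for the neighbours C1ra and C1s1 because both had lower means. Capitals mark matches to the motifs searched. The C1ra stretch holds none, and its 2 matches after the start are shown as a short run. The C1ra stretch is chr6:124512371-124512620 on the plus strand, the C1s1 stretch chr6:124542360-124542609 on the minus strand, and the short C1ra run chr6:124512637-124512661 on the plus strand.
C1ra upstream: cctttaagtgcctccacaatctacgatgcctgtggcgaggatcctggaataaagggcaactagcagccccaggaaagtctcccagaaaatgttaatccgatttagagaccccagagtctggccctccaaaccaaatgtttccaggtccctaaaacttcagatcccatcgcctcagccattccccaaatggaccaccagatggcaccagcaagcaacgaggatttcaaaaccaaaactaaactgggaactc
C1s1 upstream: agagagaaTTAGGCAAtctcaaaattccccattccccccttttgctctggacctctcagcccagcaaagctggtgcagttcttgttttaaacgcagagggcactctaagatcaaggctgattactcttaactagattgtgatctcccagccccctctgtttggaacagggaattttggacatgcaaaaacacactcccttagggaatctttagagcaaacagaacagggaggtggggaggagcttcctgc
C1ra after the start: TTATGCAAatgcttcaTTCCCTGAA

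The C/EBP motif TTGCNNAA, searched on both strands, matched in the C1s1 window at position -242 from the start and in the C1ra window at base 17 after it. It is present in 10.8% of the windows of all 27025 genes in the promoter table, taking 1 window per gene. The STAT motif TTCNNNGAA matched in C1ra at base 33 after the start and occurs in 8.47% of windows. The TCF/LEF motif, NNCAAAG with A or T at each N and searched on both strands, had no match in either window and occurs in 16.9% of all. The interferon-stimulated response element had no match in either and occurs in 3.49%, and the NF-κB motif had none and occurs in 8.18%. The TATA box TATAAA, searched on the sense strand, had no match in either and occurs in 8.88%. A second C1s1 start in the table, shifted by 38 bases, gave a window with no match to any of these motifs. The C3 window, not shown, had a C/EBP match at position -45 and a TATA box match at base 15 after the start. The matches shown do not overlap one another, and such matches describe the letters of a window and do not show binding.

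The 4 arrays had median signals of 4.15 to 4.22, and 9294 genes above the limit for dim genes, a mean of 2.18, were tested. None passed an adjusted p of 0.05 in limma (percent called 0), and 528 had an unadjusted p under 0.05, where 464.7 are expected by chance. The 18S ribosomal RNA probe sets stood at a mean of 7.21 on control replicate 2 and at 9.40 to 10.46 on the other arrays. Of 8 myoblast markers 7 lay above the limit, among them the muscle acetylcholine receptor gene Chrna1 at 9.44 and Des, the gene of desmin, at 8.71. Among them the myogenic factor gene Myod1 read 6.84 and 7.11 without Wnt3A against 6.32 and 3.62 with it, and Myf5 read 6.57 and 5.98 against 7.77 and 7.65, so their groups stood apart in opposite directions. Above it lay 4 of 9 macrophage and leukocyte markers, with list means of 2.60 to 2.82 on the 4 arrays, and 2 of 5 measured hepatocyte markers, with 2.11 to 2.37. The leukocyte antigen gene Ptprc (1.20) and the hepatocyte genes Alb (1.93) and Apob (1.56) lay below it as means over the 4 arrays. Of the 4 leukocyte markers above it, Cd14, a lipopolysaccharide coreceptor at 6.89, differed by -1.16 and the Fc receptor gene Fcgr3 by -0.45, while Csf1r differed by 1.03 and Cd68 by 0.28, each with groups apart. Fcgr3 had a Wnt3A mean of 2.17, under the limit, so it was tested through its control arrays. Csf1r read 3.26 and 3.39 without Wnt3A against 3.53 and 5.19 with it. Its other probe sets differed by 1.29 and 0.14, with overlapping groups. The part of the markers in the complement differences was not tested.

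C1ra, which encodes the protease that first activates within the C1 complex, had the widest difference of the 6 measured genes. Its probe set, 1417009_at, read 4.97 and 5.97 on the control arrays, against 3.27 and 3.64 on the Wnt3A arrays. Both Wnt3A arrays lay below both controls. The means were 5.47 ± 0.71 and 3.46 ± 0.26 (SD, n = 2), differing by -2.02 (SE 0.40), or 4.05-fold lower. A further probe set listed for both C1rb and C1ra, 1456437_x_at, read 2.52 and 2.51 without Wnt3A against 1.79 and 2.20 with it, differing by -0.52. Its groups also did not overlap, but the signal cannot be assigned to either copy. With 1 array left out the C1ra difference ran from -2.52 to -1.52.

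Serping1 encodes the serpin that inactivates C1r and C1s, as well as proteases of the lectin and contact pathways. Its probe set, 1416625_at, read 6.71 and 6.87 on the control arrays, against 6.07 and 5.07 on the Wnt3A arrays. Again both Wnt3A arrays lay below both controls. The means were 6.79 ± 0.11 and 5.57 ± 0.71, differing by -1.22 (SE 0.38), or 2.33-fold lower. The control arrays were 0.15 apart and the Wnt3A arrays 0.998 apart, and the difference was -0.72 without Wnt3A replicate 2 and -1.72 without Wnt3A replicate 1.

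C1s1 encodes the protease that C1r activates and that cleaves C4 and C2. Its probe set, 1424041_s_at, read 4.37 and 5.83 without Wnt3A against 3.10 and 4.78 with it. The groups overlapped, since Wnt3A replicate 2 lay above control replicate 1. The means were 5.10 ± 1.03 and 3.94 ± 1.19, differing by -1.16 (SE 0.75), or 2.24-fold lower, with a 95% confidence interval from -3.14 to 0.82. Arrays of the same group were further apart than the group means, by 1.46 in control and 1.68 with Wnt3A. The difference was -1.89 when control replicate 1 was left out and -0.43 when control replicate 2 was. Leaving out Wnt3A replicate 1 gave -0.32, and leaving out Wnt3A replicate 2 gave -2.0. The suffix of this probe set marks probes that can match more than 1 transcript, so a contribution of the close copy C1s2 cannot be told apart.

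**Figure D1:**
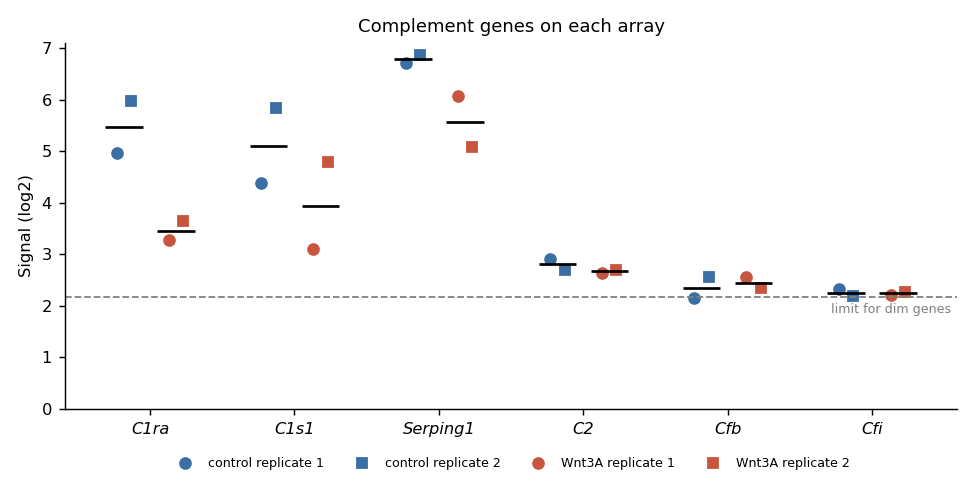
Log2 signal of the 6 measured complement genes on each array, with blue for control, red for Wnt3A, circles for replicate 1, squares for replicate 2, black bars for group means and a dashed line at the limit of 2.18. For C1ra and Serping1 both Wnt3A arrays sit below both controls, C1s1 overlaps, and C2, Cfb and Cfi lie near the limit.

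C2, Cfb and Cfi had mean signals over the 4 arrays of 2.74, 2.40 and 2.25, close to the limit of 2.18. C2 encodes the protease subunit of the classical pathway's C3 convertase. Its probe set, 1416051_at, read 2.91 and 2.69 on the control arrays, against 2.63 and 2.70 on the Wnt3A arrays. The groups overlapped, with a difference of -0.14 (SE 0.17) and a 95% confidence interval from -0.57 to 0.30.

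Cfb, factor B, is the counterpart of C2 in the alternative pathway. Its probe set, 1417314_at, read 2.15 and 2.56 without Wnt3A against 2.56 and 2.34 with it. The groups overlapped, and the difference was 0.10 (SE 0.20), with a 95% confidence interval from -0.44 to 0.63. Without control replicate 1 it was -0.11, and without Wnt3A replicate 1 it was -0.013. Cfi, factor I, is a protease that limits the cascade, and its probe set 1418724_at read 2.33 and 2.18 on the control arrays, against 2.21 and 2.28 on the Wnt3A arrays. Its groups overlapped too, and its difference was -0.014 (SE 0.14), with a 95% confidence interval from -0.39 to 0.37. It was above 0 without control replicate 1 (0.06) and without Wnt3A replicate 1 (0.02).

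Of the 6 measured genes 5 had a lower mean with Wnt3A, and their median difference was -0.65, beside -0.02 over all tested genes. C1ra and Serping1 were at least 2-fold lower with groups that did not overlap, a pattern met by 2.09% of all tested genes. None of the 6 was at least 2-fold higher in that way, as 1.54% of all tested genes were. The 6 were taken up with this comparison known, so nothing is read from that count. The median of the 6 was -0.34 when control replicate 2 was left out, and -0.70 when the other control was. Leaving out Wnt3A replicate 1 gave -0.21 and leaving out Wnt3A replicate 2 gave -0.45. Scaled to hybridization controls, which moved the median of all tested genes to 0.30, C1ra was at -1.70, Serping1 at -0.90 and C1s1 at -0.84. Under that scaling C2 (0.18), Cfb (0.41) and Cfi (0.31) lay above 0 and near the shift of all genes.

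**Figure D2:**
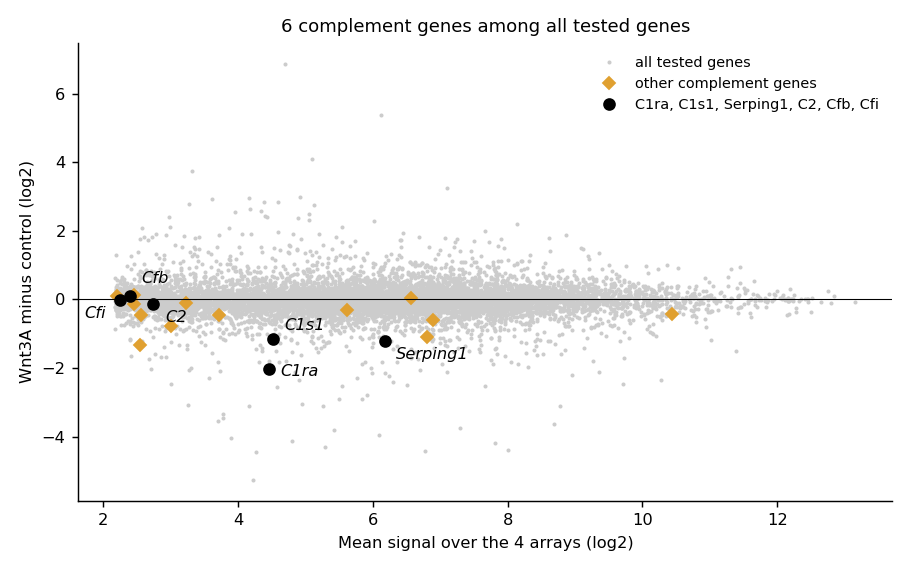
Difference between Wnt3A and control (log2) against the mean signal over the 4 arrays (log2) for all 9294 tested genes in grey, the other complement genes as orange diamonds and the 6 measured genes in black. C1ra (-2.02) lies lowest of the 6, Serping1 (-1.22) and C1s1 (-1.16) also lie below 0, and C2, Cfb and Cfi lie close to 0 at the dim end.

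**Figure D3:**
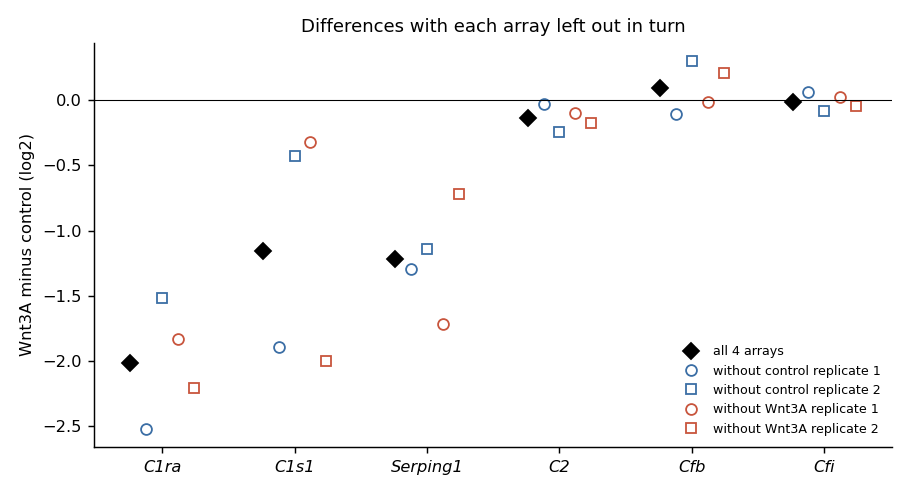
Difference between Wnt3A and control (log2) for each gene with all 4 arrays (black diamonds) and with each array left out in turn (open symbols, coloured by the group of the array left out). C1ra stays between -2.52 and -1.52, while C1s1 ranges from -2.0 to -0.32.

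Genes of fibroblasts and mesenchymal cells, which can transcribe C1r, C1s and C1 inhibitor, mostly had lower means with Wnt3A on the same arrays. Of 7 such markers 5 were tested and none passed in limma. Of the 5, 3 had an unadjusted p under 0.05, Fap among them, beside 528 of all 9294 tested genes. For 4 of the 5, Pdgfra, Dcn, Fap and Pi16, both Wnt3A arrays lay below both controls, as for 19.8% of all tested genes. The collagen gene Col1a1 had a mean 0.54 higher (SE 0.67), with overlapping groups. Second probe sets differed by -0.86 for Pdgfra with groups apart, and by 0.07 for Pi16 and -0.08 for Col1a1 with overlap. Fap read 1.79 and 1.38 on the Wnt3A arrays, below the limit, and was tested through its control arrays. Their mean signal over all 7 was 4.42 and 4.77 without Wnt3A against 3.91 and 3.99 with it. Pdgfra, a growth factor receptor gene of mesenchymal progenitors, read 9.18 and 9.25 on the control arrays, against 8.69 and 7.29 on the Wnt3A arrays. Lum (1.47) and Thy1 (1.52), as means over the 4 arrays, were below the limit. Fewer cells of a type and less RNA per cell cannot be told apart in such bulk samples, and the part of the fibroblast markers was likewise not tested.

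The question then was whether the rest of the pathway differed. Of 52 other complement genes in a list of the cascade, its regulators and its receptors, 38 had a probe set of their own and 13 were tested. None of the 13 passed in limma (percent called 0, lowest adjusted p = 0.878). Of the 13, 1, Itgb2, had an unadjusted p under 0.05, beside 528 of all 9294 tested genes. By direction 10 of the 13 had a lower and 3 a higher mean with Wnt3A. Both Wnt3A arrays lay below both controls for 7, beside 19.8% of all tested genes, and above both for 0, beside 14.7%. The 7 include Cd93, whose Wnt3A signals lay below the limit, so it was tested through its control arrays. The list's median difference was -0.42, or -0.10 after scaling to hybridization controls, -0.26 without control replicate 1, and -0.044 when dim genes were kept in.

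Among genes of the classical and lectin pathways 3 of 17 were tested. Masp1, which encodes proteases of the lectin pathway related to C1r and C1s, read 6.97 and 7.42 without Wnt3A against 6.76 and 6.40 with it. Its groups did not overlap, with a difference of -0.61 (SE 0.27, adjusted p = 0.917 in limma). A second Masp1 probe set, 1438602_s_at, differed by -0.68 with groups apart, and 3 more differed by -0.40, -0.29 and -0.25. Colec12, a scavenger receptor with a collectin domain, differed by -1.09 (SE 1.22), with signals of 8.26 and 6.44 on the control arrays, against 7.86 and 4.66 on the Wnt3A arrays. Without Wnt3A replicate 2 its difference was 0.52. Masp2, the protease that starts the lectin pathway, differed by 0.11.

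The genes of the recognition protein C1q were dim, and those of the substrate C4 shared a probe set. The genes of the 3 C1q chains, C1qa, C1qb and C1qc, lay below the limit, with 1.73, 1.24 and 1.74 as means over the 4 arrays. The probe set listed for both C4a and C4b read 3.19 and 3.60 without Wnt3A against 2.98 and 3.26 with it. Its groups overlapped, with a difference of -0.28.

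In the terminal pathway, which forms the membrane attack complex, 2 of 7 genes were tested. C8g, a chain of the complex, read 2.54 and 3.05 on the control arrays, against 2.31 and 2.37 on the Wnt3A arrays, differing by -0.45 (SE 0.22). Its groups did not overlap. C9, the pore-forming component, differed by -0.15, but by 0.17 after scaling to hybridization controls and by 0.011 without control replicate 1. For the alternative pathway the only gene with its own probe set, Cfp, lay below the limit and was not tested.

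Among the other regulators, 3 of 8 membrane genes and 1 of 8 fluid phase genes were tested, and these showed small differences. Clu, whose product clusterin blocks the terminal complex, was the 1 tested fluid phase regulator. It read 3.96 and 3.93 without Wnt3A against 3.49 and 3.49 with it, differing by -0.45 (SE 0.18, adjusted p = 0.911 in limma), and its groups did not overlap. Other Clu probe sets, all with means under the limit, differed by -0.40 and -0.57 with groups apart and by -0.014 with overlap. Cd59a, a membrane protein that stops the pore from forming, read 5.76 and 5.79 on the control arrays, against 5.51 and 5.41 on the Wnt3A arrays. That difference was -0.32 (SE 0.21), but a second probe set above the limit gave 0.08. Cd46, a cofactor for factor I, differed by -0.10 (0.21 after scaling to hybridization controls). Cr1l, the rodent regulator also called Crry, differed by 0.03 (95% confidence interval -0.65 to 0.71), and by -0.17 without control replicate 1 and -0.14 without Wnt3A replicate 2.

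Of 10 receptor genes 4 were tested. Itgb2, the beta chain of complement receptors 3 and 4, read 3.71 and 3.08 without Wnt3A against 2.44 and 2.81 with it, differing by -0.77 (SE 0.29, adjusted p = 0.878 in limma). The groups did not overlap, while its partner Itgam lay below the limit at 1.44. C1qbp, named for binding C1q and mostly found in mitochondria, read 10.66 and 10.63 on the control arrays, against 10.33 and 10.13 on the Wnt3A arrays, differing by -0.42 (SE 0.17). Its second probe set differed by -0.33, also with groups apart. Cd93, at one time taken for a C1q receptor, read 4.12 and 2.30 without Wnt3A against 2.07 and 1.70 with it, so its Wnt3A signals lay below the limit and it was tested through its control arrays. Its second probe set, at 1.69 to 1.83 on all arrays, differed by 0.03. Cr2, a receptor for C3 fragments, differed by 0.09.

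**Figure D4:**
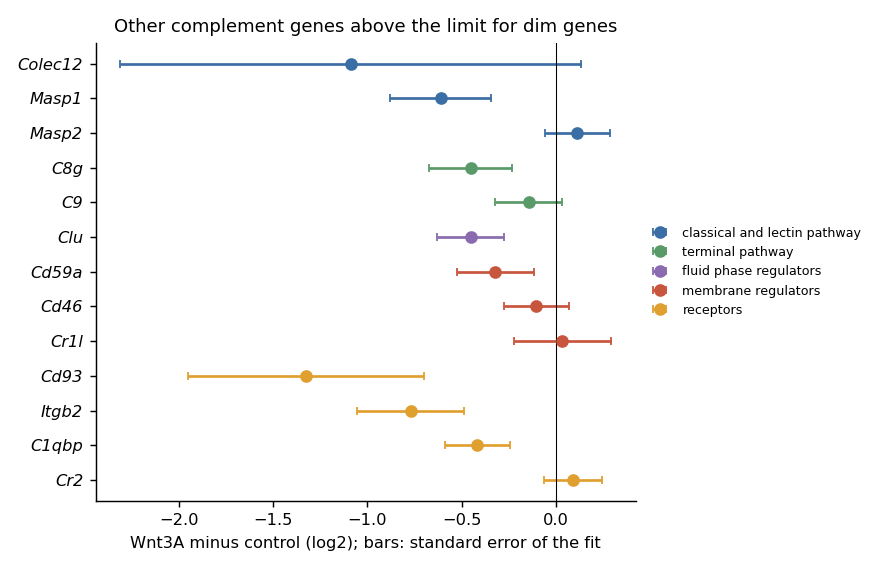
Difference between Wnt3A and control (log2) for the 13 other complement genes above the limit for dim genes, coloured by role, with bars for the standard error of the fit across all genes. The points of 10 genes lie below 0, and none passed the test over all genes.

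Acute phase proteins, for which interleukin-6 is also an inducer, were examined next. Of 20 in the list 7 were tested, 4 with a lower and 3 with a higher mean, and none passed in limma. Of the 7, 2 had an unadjusted p under 0.05, beside 528 of all 9294 tested genes. Lbp, which presents bacterial lipopolysaccharide to Cd14, read 3.27 and 3.29 on the control arrays, against 1.93 and 2.46 on the Wnt3A arrays. Its groups did not overlap, with a difference of -1.09 (SE 0.23, adjusted p = 0.550 in limma). Its signal on Wnt3A replicate 1 lay below the limit for dim genes. Hp, the gene of haptoglobin, read 2.75 and 4.37 without Wnt3A against 1.80 and 2.17 with it, differing by -1.58 (SE 0.56, adjusted p = 0.867 in limma). The Wnt3A signals of Hp lay below that limit, so it was tested through its control arrays. Saa3, a serum amyloid made outside the liver, read 3.72 and 7.32 on the control arrays, against 3.11 and 4.27 on the Wnt3A arrays, and its groups overlapped. Steap4 differed by 0.25 and Cp, the gene of ceruloplasmin, by 0.28 (-0.14 without Wnt3A replicate 2). Other Cp probe sets differed by 0.64 with groups apart, and by 0.84, 0.31, 0.28, 0.01 and -0.26 with overlapping groups. A second Steap4 probe set, with a mean of 1.27 and so under the limit, differed by -0.11 with groups apart. The median of the list was -0.06.

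Cytokines, receptors and transcription factors known to act on complement genes were measured as well. Of 29 listed 24 were tested, 15 with a lower and 9 with a higher mean, and none passed in limma. Of the 24, 2 had an unadjusted p under 0.05, beside 528 of all 9294 tested genes. Both Wnt3A arrays lay below both controls for 9, beside 19.8% of all tested genes, and above both for 4, beside 14.7%; the median was -0.11. The 2 receptor chains for interleukin-6 differed in opposite directions. Il6ra, the ligand-binding chain, read 5.45 and 5.02 without Wnt3A against 6.66 and 6.53 with it, differing by 1.36 (SE 0.25, adjusted p = 0.482 in limma). Il6st, the signalling chain, read 8.33 and 8.52 on the control arrays, against 7.75 and 6.88 on the Wnt3A arrays, differing by -1.11 (SE 0.34, adjusted p = 0.809 in limma). Neither gene's groups overlapped. Other probe sets differed by 0.19 for Il6ra, and by -0.88 and 0.38 for Il6st.

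Cebpa, a transcription factor of the C/EBP family, read 7.20 and 6.39 without Wnt3A against 5.94 and 4.01 with it. Both Wnt3A arrays lay below both controls, with a difference of -1.82 (SE 0.71, adjusted p = 0.906 in limma). Il1r1, the interleukin-1 receptor gene, differed by -0.59 (SE 0.28) and Rela, an NF-κB subunit gene, by 0.45 (SE 0.21). The groups of both genes did not overlap, in opposite directions.

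**Figure D5:**
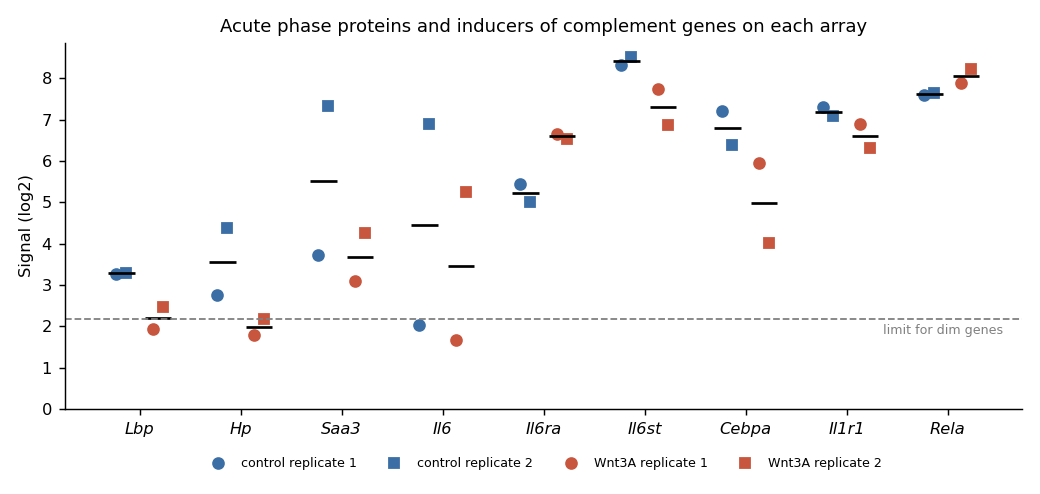
Log2 signal on each array of acute phase genes (Lbp, Hp, Saa3) and of genes known to act on complement genes, with colours, symbols, bars and dashed line as in the plot of the 6 complement genes. The Il6 arrays of a group lie further apart than the group means, while Il6ra and Rela read higher on each Wnt3A array than on either control.

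The tested genes whose pattern over the 4 arrays was nearest to the median pattern of the 6 were Paip2b, Dicer1, Ctps, Slc5a2 and Slc10a3. Their root mean square distances, taken after centring each gene on its own mean, were 0.099 to 0.102 on the log2 scale. Because 3 of the 6 hardly varied, that median pattern is shallow, and the differences of these nearest genes were only -0.37 to -0.31.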

How the data were processed

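The authors deposited 1 log2 signal per probe set and array. The log base is inferred from their range, 0.50 to 13.23; the sources used here give no normalization, filter or genome build. Per the submitters' processing notes, GCOS and PLIER were used, with no version or role given. Of 22690 probe sets, 64 are array controls, 691 name several genes and 20380 name 1; symbols were updated by Entrez ID. A gene took its probe set of highest mean, and the lowest 25% of genes, at or under 2.18, were left out.

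The difference was fitted in R 4.3.3 with limma 3.58.1 (lmFit, eBayes with trend) on all 4 arrays, group as the only term, two-sided, with Benjamini-Hochberg adjustment over all tested genes. An exact permutation test of 2 against 2 arrays cannot go below p = 0.333 and was not used. The script was tested on simulated data.

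The 7 genes, the lists and the rules were chosen with earlier results of these data known. Named by rule were all members, up to 4 genes per complement role and up to 5 per other list by lowest unadjusted p, and the 5 nearest patterns. Alternatives were the replicate block, 3 normalizations, 2 filters, 2 probe set rules, no trend and leaving out each array. The number of arrays limits the precision.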

Additional observations from a re-analysis of the deposited data

How the results depend on the processing

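The count of genes passing limma over all genes, 0 as reported, was 83 with the replicate number as a block, 49 after scaling to hybridization controls and 1 with the dimmer 50% left out; it was 0 in every fit that left out 1 array. The replicate block passed none of the other complement, acute phase or inducer genes. Same-numbered arrays deviated together across genes (r = 0.48 of the gaps between replicates), but the labels do not say that numbers mark a pairing. The count of complement members at least 2-fold lower with groups apart, 2 as reported, was 1 after scaling to hybridization controls (C1ra), 1 with the dimmer 50% left out, where of the 6 only Serping1 was still above the limit, and 2 to 3 with 1 array left out. After scaling to hybridization controls the differences of C2 (0.18), Cfi (0.31), Cd46 (0.21) and C9 (0.17) changed sign. With 1 array left out, those of Cfb (-0.11 to 0.30), Cfi (-0.088 to 0.060), C9 (-0.30 to 0.011), Cr1l (-0.17 to 0.23), Cp (-0.14 to 0.71), Colec12 (-2.69 to 0.52) and Masp2 (-0.036 to 0.26) did so among the named genes still above the limit in each fit; Cr2 was under it without Wnt3A replicate 2. The cause was not tested. No detection calls were used, so signals near the limit for dim genes give little room to show a lower level.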

Other observations

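Il6, a cytokine gene that induces complement and acute phase genes, was chosen here after its values were seen. It read 2.02 and 6.90 without Wnt3A against 1.66 and 5.24 with it, so replicate 2 lay above replicate 1 by 4.88 in control and by 3.57 with Wnt3A. Its groups overlapped, with a difference of -1.01 (SE 1.98, adjusted p = 0.964 in limma). C1s1 was also higher on replicate 2 in each group, by 1.46 and 1.68, as was C1ra, with 4.97 and 5.97 in control and a gap of 0.37 with Wnt3A. Serping1 was higher on replicate 2 by 0.15 in control and differed by -0.998 with Wnt3A. Saa3 was higher on replicate 2 by 3.60 in control and by 1.16 with Wnt3A. What sets replicate 1 and replicate 2 apart is not given in the labels.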
